A study of Mus musculus with 4 samples.

Results

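The genes described are 7 transcription factors known from axotomised neurons, Atf3, Jun, Fosl1, Crem, Sox11, Smad1 and Klf6, taken by their gene names on a mouse expression array. The array carried 13 probes for these 7 genes, of 55681 probes in all. All 7 genes were among the 29114 genes tested. The samples were lumbar spinal cords of 2 mice after spinal nerve ligation (SNL), in which the L5 spinal nerve was tied off tightly with silk, and of 2 mice after a sham operation, in which that nerve was exposed and left untied. All 4 animals were male ICR mice, an outbred wild-type strain, aged 8 weeks, and their cords were taken 10 days after surgery. The protocol gives the L4 and L5 segments and the sample source L5 alone, and neither says which side of the cord was taken. Total RNA of each cord was labelled with Cy3 and hybridised to 1 single-colour Agilent array.

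Cutting or tying a peripheral nerve separates the axons in it from their cell bodies. Motor neuron cell bodies lie in the ventral horn of the cord, whereas sensory neuron cell bodies lie in the dorsal root ganglia outside it. Injured neurons switch on a set of transcription factors that raise stress, survival and axon growth genes. Atf3, Jun, Fosl1 and Crem are 4 basic leucine zipper (bZIP) proteins, which bind DNA as dimers. JUN and FOS-type partners form AP-1, which binds TGANTCA, and ATF and CREB-type proteins bind the cyclic AMP response element (CRE), TGACGTCA. Sox11 is a high mobility group factor of the SoxC class, Smad1 carries bone morphogenetic protein (BMP) signals to the nucleus, and Klf6 is a zinc finger factor of the Krueppel-like family.

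Atf3 was raised 37.2-fold in SNL cords and was the single factor of the 7 to pass the test, which was limma's moderated test with Benjamini-Hochberg adjustment over 29114 genes at an adjusted p under 0.05. Of all genes, 0.161% were called higher in this way and 0.0103% lower. The other 6 factors had higher means in SNL cords, by 2.41-fold for Sox11, 2.14-fold for Fosl1 and between 1.23-fold for Jun and 1.45-fold for Crem, and none of the 6 passed after adjustment. At an unadjusted p under 0.05, 6 of the 7 were higher, against 6.67% of all genes higher and 5.48% lower. In all 7, both SNL mice lay above both sham mice, a separation found in 24.9% of all genes, with the reverse separation in 20.9%. A difference of at least 2-fold was found for 3 of the 7, against 2.8% of all genes, or 1.91% with an unadjusted p under 0.05 as well. The median log2 difference was 0.54 over the 7 factors and 0.028 over all genes tested. The 7 factors were chosen with earlier results of these data known, so these shares describe the set and do not test it.

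**Figure D1:**
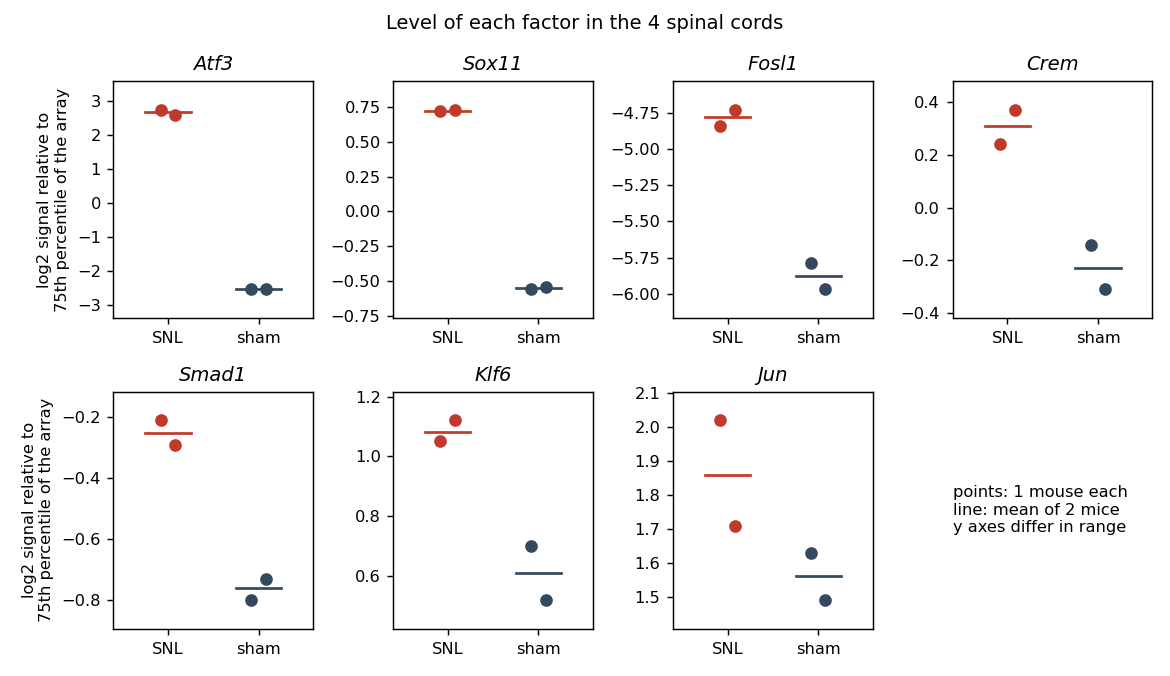
Level of each of the 7 factors in every mouse, SNL left of sham, as log2 signal relative to the 75th percentile of the array, with 1 point per mouse and a line at each group mean. Each panel has its own vertical axis. Both SNL points lie above both sham points in all 7 panels, with the widest gap for Atf3 (lowest SNL value minus highest sham value 5.1) and the narrowest for Jun (0.077).

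The region just upstream of the transcription start is shown for the 4 factors in which a searched motif of these dimers was found, since Atf3 and Jun are themselves known targets of ATF and JUN dimers. The sequences are RefSeq's for mouse build GRCm38.p6. A promoter window of 250 bases before to 50 after the start was given for 5 of the 7 factors, all but Fosl1 and Crem. The 250 bases before the start are printed 5′ to 3′ on the gene's strand, at chr1:191183334-191183583 for Atf3, chr4:95052223-95052472 for Jun and chr12:27342719-27342968 for Sox11, all on the minus strand, and at chr13:5861239-5861488 for Klf6 on the plus strand. Capitals mark the motif matches.
Atf3: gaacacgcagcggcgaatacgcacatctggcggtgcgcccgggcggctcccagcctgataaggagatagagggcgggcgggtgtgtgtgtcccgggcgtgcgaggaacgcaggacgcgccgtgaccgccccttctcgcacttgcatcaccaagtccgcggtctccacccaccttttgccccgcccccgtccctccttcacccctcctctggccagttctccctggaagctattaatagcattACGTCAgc
Jun: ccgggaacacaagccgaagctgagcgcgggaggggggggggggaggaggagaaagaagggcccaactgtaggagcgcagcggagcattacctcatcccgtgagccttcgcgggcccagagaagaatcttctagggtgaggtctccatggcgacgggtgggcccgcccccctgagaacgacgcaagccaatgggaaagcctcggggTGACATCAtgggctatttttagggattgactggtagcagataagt
Sox11: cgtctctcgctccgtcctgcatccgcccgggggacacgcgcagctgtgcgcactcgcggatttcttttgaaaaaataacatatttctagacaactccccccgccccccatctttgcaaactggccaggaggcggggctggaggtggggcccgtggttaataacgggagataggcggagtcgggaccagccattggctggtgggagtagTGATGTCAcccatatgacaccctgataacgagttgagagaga
Klf6: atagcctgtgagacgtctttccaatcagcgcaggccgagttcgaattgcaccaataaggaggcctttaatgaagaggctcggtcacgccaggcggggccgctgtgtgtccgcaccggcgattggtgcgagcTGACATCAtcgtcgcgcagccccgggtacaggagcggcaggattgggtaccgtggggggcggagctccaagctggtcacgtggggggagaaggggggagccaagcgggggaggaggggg

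The full CRE, TGACGTCA, was in 0 of the 5 windows and in 1.79% of 32851 promoter windows, searched on both strands. The AP-1 motif TGANTCA was also in 0 of the 5, against 7.81% of all windows. The related motif TGACATCA, known from the Jun promoter as a site of JUN and ATF2 dimers, was in 3 of the 5, against 3.62% of all windows. Since the motif was taken from Jun, its match there was known beforehand, and without Jun the count is 2 of 4. It began 45 bases before the start in Jun, 119 bases before it in Klf6, and 42 bases before it in Sox11, where the printed strand holds the reverse complement TGATGTCA. The 6-base CRE core ACGTCA, which lies inside the full CRE and was chosen after these sequences were seen, was 8 bases before the start in Atf3 and in 7.51% of all windows. The Smad1 window held none of the 4 motifs. A match describes the letters of the window, not binding in these cords.

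**Figure D2:**
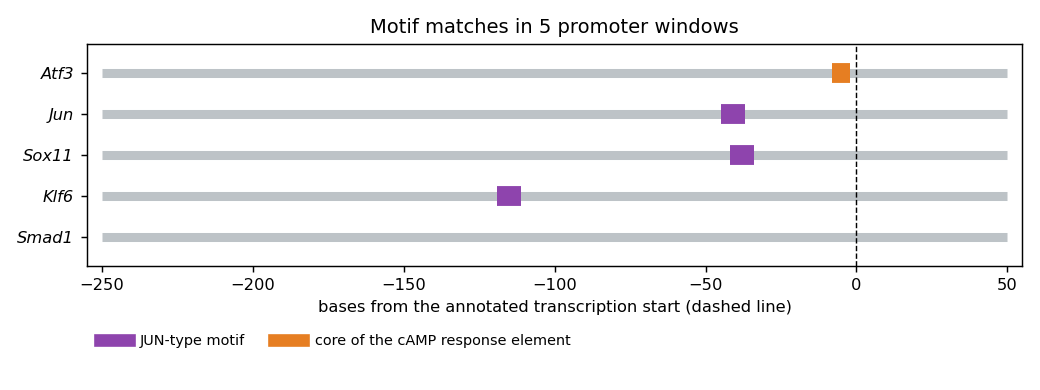
Position of motif matches in the 5 available promoter windows, with bases from the annotated start on the horizontal axis, the start as a dashed line and 1 row per gene. TGACATCA lies at -45 in Jun, -42 in Sox11 and -119 in Klf6, the CRE core lies at -8 in Atf3, and the Smad1 row is empty.

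Atf3 encodes a stress-induced bZIP protein and is widely used as a marker of injured neurons. Its probe, A_52_P452689, lies at chromosome 1, 192994547 to 192994606, on the mm9 build of the array's annotation. The level, given here and for all genes as log2 signal relative to the array's 75th percentile, was 2.74 and 2.60 in SNL cords and -2.54 and -2.55 in sham cords. The deposited signals behind these were 79056 and 79443 in SNL cords, against 2196 and 2071 in sham cords. Both SNL mice thus lay above the 75th percentile of the array and both sham mice below it, and the spot was well above background on all 4 arrays. The difference was 5.22 ± 0.10 on the log2 scale (SE, 95% interval 4.92 to 5.51, limma adjusted p = 0.0371). The spread was small beside it, with an SD of 0.098 in SNL cords and 0.007 in sham cords (n = 2 each). Among all genes tested, Atf3 had the lowest p and the 12th largest increase. The adjusted p passed no longer with the replicate number as a block (0.185) or when any 1 mouse was left out (0.102 to 0.473), while the difference stayed between 5.15 and 5.29 with 1 mouse left out. With 2 mice a group, an exact permutation test of a single gene cannot give a p under 0.333.

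Jun encodes the AP-1 subunit that JUN kinases phosphorylate after axon injury. Its probe, A_55_P2158990, lies at chromosome 4, 94716928 to 94716987 (mm9). Its level was 2.02 and 1.71 in SNL cords and 1.63 and 1.49 in sham cords. The groups did not overlap, but the gap between them, 0.077, was smaller than the 0.31 between both SNL mice. The difference was 0.30 ± 0.15 (SE, 95% interval -0.14 to 0.74, limma adjusted p = 0.538), so an increase of up to 1.67-fold and a slight decrease both lie inside the interval. It was 0.15 without SNL mouse 1 and 0.45 without SNL mouse 2.

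Fosl1 encodes FRA-1, a FOS-family partner of JUN. Its probe, A_51_P308796, lies at chromosome 19, 5455496 to 5455555 (mm9), and its deposited signals were 414 and 494 in SNL cords, against 232 and 193 in sham cords. Its level was -4.84 and -4.73 in SNL cords and -5.79 and -5.97 in sham cords, low on the array but well above background in every mouse. The difference was 1.10 ± 0.12 (SE, 95% interval 0.75 to 1.44, limma adjusted p = 0.121). With normexp background correction it was 0.68, and with no filter on dim probes its adjusted p was 0.0467.

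Crem encodes a cyclic AMP response element modulator, whose short isoforms repress CRE-driven transcription. The probe that represents it, A_52_P460957, had levels of 0.24 and 0.37 in SNL cords and -0.14 and -0.31 in sham cords. The difference was 0.54 ± 0.12 (SE, 95% interval 0.19 to 0.88, limma adjusted p = 0.267), and it was 0.32 when the gene's probes were averaged. Crem had 4 probes, which did not all read alike. A second probe, A_51_P423976, also lay higher in both SNL cords, at -0.68 and -0.64, against -1.56 and -1.05 in sham cords. Its difference was 0.65 ± 0.21 in the fit over 44313 probes (limma adjusted p = 0.389), and 0.39 without sham mouse 1. Probe A_55_P2177904, drawn from another transcript, had overlapping levels of -6.73 and -7.63 in SNL cords and -7.49 and -6.42 in sham cords. Its difference was -0.23 ± 0.52 (95% interval -1.72 to 1.27), and it changed sign with normexp background correction (0.16), without sham mouse 2 (0.31) and without SNL mouse 2 (0.22). The remaining probe, A_55_P2044257, was flagged as non-uniform on both sham arrays and was not tested. Keeping those spots, it was -0.40 ± 0.29 (limma adjusted p = 0.643).

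Sox11 had the second largest difference of the 7. SoxC factors hold immature neurons in a growth state, and Sox11 is re-expressed in injured sensory neurons. The probe that represents it, A_55_P2094721, lies at chromosome 12, 28020087 to 28020146 (mm9). Its level was 0.72 and 0.73 in SNL cords and -0.56 and -0.54 in sham cords, so the mice of each group lay almost on top of each other. The difference was 1.27 ± 0.088 (SE, 95% interval 1.02 to 1.53, limma adjusted p = 0.0721), a fold of 2.41 with an interval from 2.03 to 2.88. It passed when dim probes were kept (adjusted p = 0.0447) and when limma used a variance trend with robust estimation (0.00212). Those settings called 1231 and 559 genes, against 50 in the main fit. In the other settings it did not pass, with a limma adjusted p of 0.101 for the mean of its probes and 0.269 with the replicate block. Another Sox11 probe, A_52_P160955, read -1.97 and -2.01 in SNL cords and -2.79 and -3.01 in sham cords. That probe also separated the groups, with a smaller difference of 0.91 ± 0.12 (limma adjusted p = 0.17 over all probes), or 0.56 with normexp background correction.

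Smad1 was represented by probe A_52_P65108 at chromosome 8, 81863015 to 81863074 (mm9). Its level was -0.21 and -0.29 in SNL cords and -0.80 and -0.73 in sham cords. The difference was 0.51 ± 0.095 (SE, 95% interval 0.24 to 0.79, limma adjusted p = 0.22). A second probe, A_55_P2029285, gave a close value, 0.55 ± 0.13 (limma adjusted p = 0.283). The remaining probe, A_55_P2029289, was well above background on no array and was not tested.

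Klf6 is a growth-permissive member of its family in mouse cortical neurons. Its probe, A_51_P451346, lies at chromosome 13, 5869371 to 5869430 (mm9), and read 1.05 and 1.12 in SNL cords and 0.70 and 0.52 in sham cords. The groups did not overlap, and the difference was 0.48 ± 0.11 (SE, 95% interval 0.15 to 0.80, limma adjusted p = 0.288). With normexp background correction it was 0.29.

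**Figure D3:**
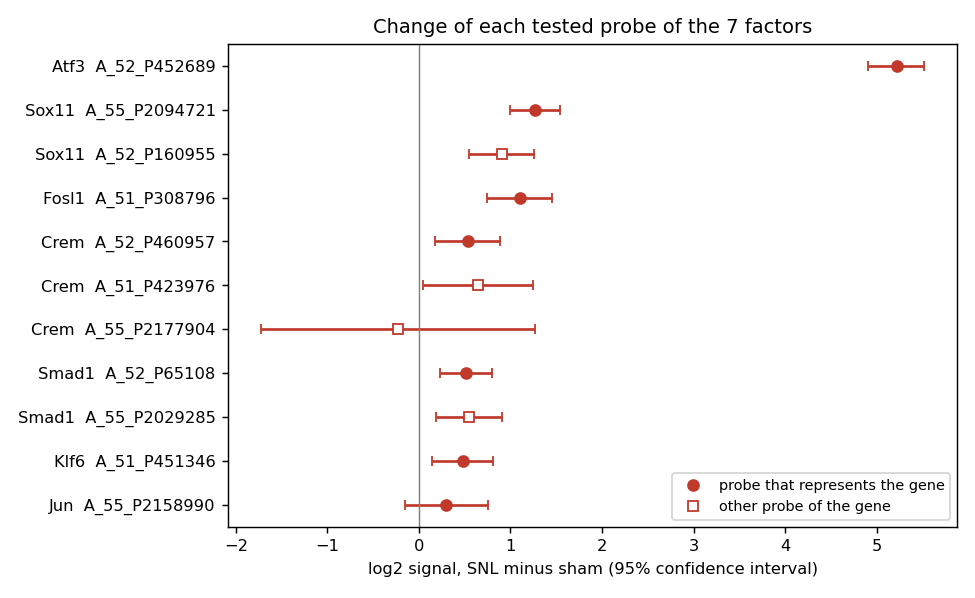
Difference in log2 signal, SNL minus sham, for the 11 tested probes of the 7 factors, with 95% confidence intervals from the fit over all probes. Filled points mark the probe that represents a gene and open squares its other probes. The Atf3 probe stands alone at 5.22, the Sox11 probes lie at 1.27 and 0.91, and the Crem probe A_55_P2177904 is the single probe below 0, at -0.23 with an interval that spans 0.

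**Figure D4:**
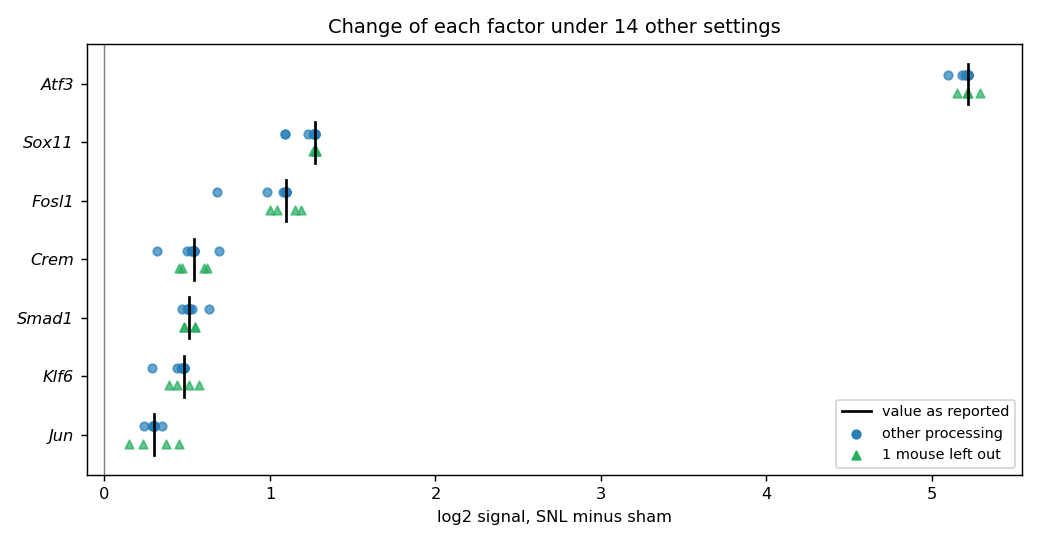
Difference in log2 signal, SNL minus sham, of each factor as reported (bar), under other processing (circles) and with 1 mouse left out (triangles). Every value lies above 0. For the triangles this was fixed in advance, since both SNL mice lay above both sham mice for each factor. Atf3 stays between 5.10 and 5.29, Sox11 between 1.09 and 1.28, Smad1 between 0.47 and 0.63, Klf6 between 0.29 and 0.57, Crem between 0.32 and 0.69, Fosl1 between 0.68 and 1.19 and Jun between 0.15 and 0.45.

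The families of the 7 factors gave no further call. Of all genes tested, 0.172% were called in either direction, so 0 calls in a short list lies near that share. At an unadjusted p under 0.05, 6.67% of all genes were higher and 5.48% lower. Of 14 other AP-1 and JUN partners, 0 passed after limma's adjustment, and at an unadjusted p under 0.05, 6 were higher and 1 lower, with a median difference of 0.19. Maff, a small MAF protein, differed by 1.32 ± 0.16 and Batf, a lymphoid and myeloid AP-1 partner, by 1.38 ± 0.29 (SE, n = 2 each). Fosb, an activity-induced gene, was lower, at -0.45 ± 0.096. The immediate early gene Fos, named after its value was seen, read -0.83 and -0.55 in SNL cords and -0.42 and -0.51 in sham cords.

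Of 16 other ATF, CREB and C/EBP factors, 0 passed, with 4 higher and 0 lower at the unadjusted threshold and a median of 0.15, or 0.25 without SNL mouse 2. Those 4 were Cebpd (1.34 ± 0.22), Cebpb (0.72 ± 0.089), Nfil3 (0.55 ± 0.099) and Cebpa (0.80 ± 0.17). Cebpb and Cebpd are inflammation-induced factors, and Cebpa is a factor of the myeloid lineage. Atf4, the main effector of the integrated stress response and an inducer of Atf3 elsewhere, differed by 0.20 with a 95% interval from -0.09 to 0.49. Ddit3, which encodes CHOP, differed by 0.20 with an interval from -0.10 to 0.50, and both were named after their values were seen.

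Of 11 other Sox factors, 0 passed and 1 was lower at the unadjusted threshold, Sox6 at -0.41 ± 0.14, with a list median of -0.17, or -0.078 without sham mouse 1. Of the other SoxC genes, Sox11's closest relatives, both named after their values were seen, Sox4 differed by 0.03 with a 95% interval from -0.24 to 0.30 and Sox12 by -0.075 with an interval from -0.43 to 0.28. Neither interval reaches the lower end of Sox11's, 1.02, although the difference between the genes was not tested.

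Of 14 other Krueppel-like factors, 0 passed, with 3 higher and 1 lower at the unadjusted threshold and a median of 0.27, or 0.16 without SNL mouse 1 and 0.17 without sham mouse 1. Klf5 differed by 0.70 ± 0.12, Klf2 by 0.83 ± 0.18, Klf13 by 0.37 ± 0.11 and Klf11 by -0.42 ± 0.14. Klf7, the closest relative of Klf6 and named after its value was seen, differed by 0.31 ± 0.14.

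Of 20 tested Smad and BMP signalling genes, 0 passed, with 1 higher and 1 lower at the unadjusted threshold and a median of -0.081, which was -0.0083 without SNL mouse 2, -0.016 without sham mouse 1 and -0.027 without sham mouse 2. Nog, which encodes the secreted BMP antagonist noggin, was at -0.67 ± 0.14 and Acvr1, a BMP receptor, at 0.37 ± 0.11. The other BMP-activated Smads, Smad5 and Smad9, both named after their values were seen, differed by 0.0022 with a 95% interval from -0.25 to 0.26 and by -0.094 with an interval from -0.44 to 0.25.

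Of 15 genes of the kinase cascade upstream of JUN, 0 passed, with 1 higher and 2 lower at the unadjusted threshold and a median of -0.023, which ranged from -0.14 to 0.11 over the other settings. The phosphatase gene Dusp16 was at -0.61 ± 0.098 and Dusp1 at 0.51 ± 0.12. Map3k12, which encodes the axon injury sensor kinase DLK, was at -0.32 ± 0.10. Phosphorylation, by which this cascade acts, is not measured by an RNA array.

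Of 18 other injury-response transcription factors, 0 passed, with 3 higher and 1 lower at the unadjusted threshold and a median of 0.063, which ranged from -0.0046 to 0.13 over the other settings. Runx1 differed by 1.27 ± 0.18, Irf8, a microglial and macrophage factor, by 1.00 ± 0.15, Myc by 0.62 ± 0.094 and Nfatc4 by -0.38 ± 0.11. Stat3, which carries cytokine signals in injured neurons and was named after its value was seen, differed by 0.24 ± 0.093.

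**Figure D5:**
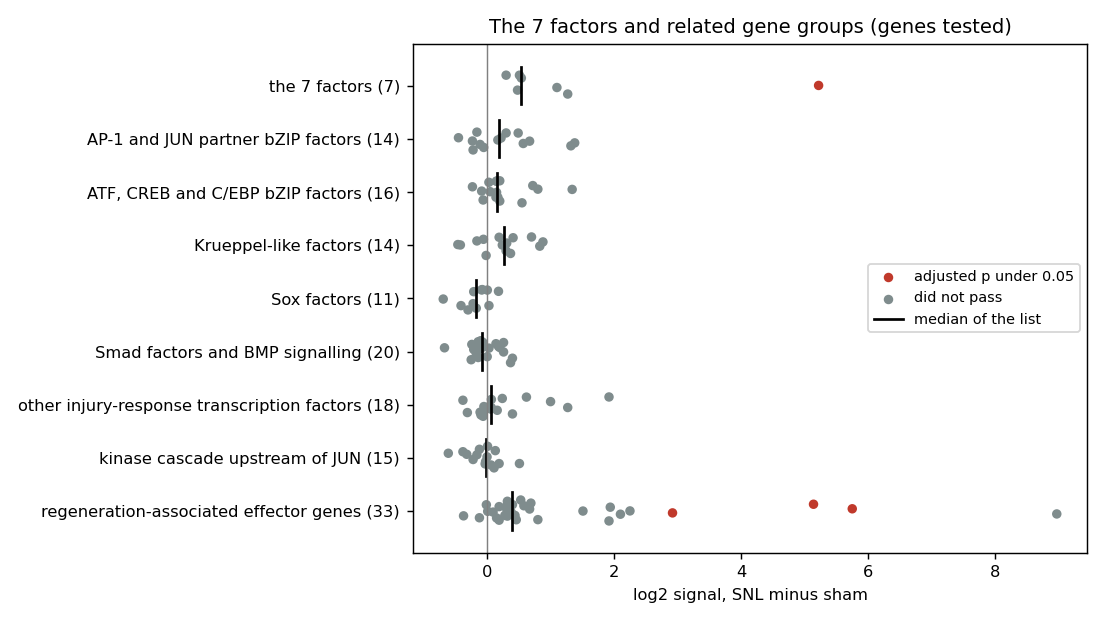
Difference in log2 signal, SNL minus sham, of every tested gene in the 7 factors and in the related lists, with 1 point per gene, the list median as a bar and genes with an adjusted p under 0.05 in red. The number tested stands in brackets. Red points among transcription factor lists are limited to Atf3, and 3 more lie among the regeneration-associated effector genes.

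Effector genes that such factors are known to raise were followed next. Of 33 tested regeneration-associated effector genes, 3 passed after limma's adjustment, all higher, against 0.161% of all genes. At the unadjusted threshold 18 were higher and 1 lower, against 6.67% and 5.48% of all genes. This list was also chosen with earlier results of these data known, so its counts describe it and do not test it. The list median was 0.40, and 30 of the 33 lay above 0. Gal, which encodes the neuropeptide galanin, read 3.49 and 3.40 in SNL cords and 0.39 and 0.66 in sham cords (7.56-fold, limma adjusted p = 0.0475). Gpr151, an orphan receptor gene of injured neurons, read 0.44 and 0.24 in SNL cords and -5.11 and -4.49 in sham cords (35.2-fold, limma adjusted p = 0.0475). Ankrd1, a muscle ankyrin repeat gene also induced in injured neurons, was not well above background in either sham cord and was at least 43.2-fold higher in SNL cords (limma adjusted p = 0.0402). Its mean was -2.51 in SNL cords and -8.25 in sham cords, and a bound of this kind sets the dim group at the lowest signal called well above background on each array. Cdkn1a, a cell cycle inhibitor gene, differed by 2.25 ± 0.19 and did not pass (limma adjusted p = 0.0879). Npy, named after its value was seen, differed by 1.94 ± 0.22 (limma adjusted p = 0.127).

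Likeness to Atf3 was measured as the Euclidean distance between centred log2 profiles over the 4 arrays. Names of predicted genes, clones and regions were left out. The 6 nearest of the rest were Lipn at 0.191, Sprr2f at 0.404, Gpr151 at 0.452, Speer3 at 0.549, Krt16 at 0.595 and Speer4d at 0.602. Of these, Gpr151 and Speer4d were well above background on all 4 arrays, with log2 differences of 5.14 and 5.69. Speer3 was so on 3 of the 4. The sham spots of Lipn, Sprr2f and Krt16 were all not well above background, and these genes were at least 29.7-fold, 7.07-fold and 19.2-fold higher in SNL cords. Speer genes are near-identical copies, so their probes may read one another's transcripts. For the genes with dim sham spots the distance rests on values below background, so their order is not firm. With 4 arrays in 2 groups, this distance says little more than that the size of the difference is alike.

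Nearest to Sox11, with the same kinds of names left out, were Fermt3 at 0.112, Abi3 at 0.125, Ifi30 at 0.128 and Ncf1 at 0.128. Their log2 differences lay between 1.16 for Fermt3 and 1.35 for Ifi30. Fermt3 encodes kindlin-3 of blood cells, Ncf1 a subunit of the phagocyte oxidase and Ifi30 a lysosomal reductase of antigen-presenting cells. As for Atf3, the distance says little more than that the differences are alike in size, and a shared cell type was not tested. None of the 4 passed limma's adjustment, with adjusted p values from 0.0817 to 0.0876. Among the 7 factors themselves, the nearest pair was Klf6 and Crem at 0.0723, and Atf3 lay between 3.95 and 4.92 from the other 6.

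Markers of the cell types in a cord moved with the groups to different degrees, and in bulk tissue fewer cells of a type and less RNA per cell cannot be told apart. All 20 microglia and macrophage markers were higher in both SNL cords than in both sham cords, a separation found in 24.9% of all genes. At an unadjusted p under 0.05, 18 of them were higher, against 6.67% of all genes, and 0 of the 20 passed limma's adjustment. Their summed level was 93.1 and 82.3 times the 75th percentile in SNL cords and 52.8 and 53.5 times in sham cords, with a median log2 difference of 0.83. Sox11, Batf, Cebpa and Runx1 lay higher in the same cords, as did Irf8, which is itself 1 of the 20 markers. The part of microglia in the values of these 5 genes was not tested.

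Of 20 motor neuron markers, 2 fell after limma's adjustment, against 0.0103% of all genes. At the unadjusted threshold 10 were lower, those 2 among them, and 1 was higher, against 5.48% and 6.67% of all genes. The list median was -0.35, or -0.22 without sham mouse 1. Chodl, a marker of fast motor neurons, read -2.73 and -2.79 in SNL cords and 1.18 and 0.97 in sham cords (limma adjusted p = 0.0371). Mnx1, a motor neuron identity factor, did not rise well above background on the SNL arrays and was at least 15.6-fold lower there (limma adjusted p = 0.0402, means -7.15 in SNL and -2.98 in sham cords). Chat, the acetylcholine synthesis enzyme gene, named after its value was seen, read 1.05 and 0.79 in SNL cords and 1.71 and 1.59 in sham cords. The higher marker was Gfra1, also named after its value was seen, at 1.04 ± 0.16. Of the 20 markers, 16 lay below 0 and 4 above it. The markers' summed level was 47.2 and 41.4 in SNL cords and 58.5 and 53.6 in sham cords. The part of motor neurons in the Atf3 difference was not tested.

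Tissue from outside the cord was looked for with markers of root and ganglion cells. Of 19 sensory neuron markers, the nociceptor genes Scn10a, Mrgprd and Mrgpra3 were well above background on no array. The 16 tested had a median of 0.069, which was 0.017 without sham mouse 1, 0.24 without sham mouse 2 and 0.17 without SNL mouse 1. They had a summed level of 12.1 and 11.9 in SNL cords and 13.3 and 13.1 in sham cords. Bright probes weigh most in such a sum. It includes Calca, also counted among the motor neuron markers, and Isl2, at -0.33 and -0.28 in SNL cords and 1.08 and 0.86 in sham cords. Avil adds little to it, at -5.70 and -5.54 in SNL cords and -6.00 and -5.70 in sham cords. The sum is thus no measure of ganglion tissue alone. Calca and Avil were named after their values were seen. Among 16 Schwann and satellite cell markers, 2 were higher at the unadjusted threshold, against 6.67% of all genes, and 0 passed. Their median difference was 0.79, which was -0.064 without sham mouse 2, 1.3 without sham mouse 1 and 1.4 without SNL mouse 2. Their median level was -0.09 and -0.75 in SNL cords and -0.37 and -2.67 in sham cords, the last being sham mouse 2. The Atf3 difference was 5.21 without sham mouse 2 and 5.22 with it, which says nothing of such tissue in the SNL cords. The part of root or ganglion tissue in that difference was not tested.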

How the data were processed

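Gene expression was measured on 4 single-colour Agilent arrays (design 028005), 2 SNL and 2 sham mice, grouped by the labelled treatment. Per the file headers, Agilent Feature Extraction 10.7.3.1 made the deposited intensity values, background-corrected processed signals (the submitters' processing notes give 10.7.1.1). Probe coordinates are mm9, per the file headers. The deposited value table holds log2 values with gene centring and scale unstated, which matched log2 signals of these arrays with Pearson r of 1.0 and an offset of 0.122 to 0.132 per array (column medians -3.48 and -3.33 in SNL, -3.45 and -3.52 in sham), so it is not centred per gene. It served as an alternative.

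From the scanner files, log2 processed signal was taken relative to the 75th percentile of the 59305 non-control spots on its array. Outlier-flagged spots were left out, spots of a probe averaged, and probes kept if measured on all 4 arrays and well above background on at least 2. The brightest probe represented a gene. Levels of different probes are not set against each other. Symbols were updated through RefSeq for 26762 probes by accession, 3819 by symbol and 639 by synonym, and 24461 of 55681 kept the file's name. Differences are SNL minus sham from limma 3.58.1 (R 4.3.3, lmFit and eBayes, no covariates), with Benjamini-Hochberg adjustment over 29114 genes, or 44313 probes for single probes. The fit had 2 residual and 1.66 prior degrees of freedom and a median SE of 0.131, and was tested on simulated data. The number of arrays limits the precision. No array had a saturated spot, 74.9% and 78.1% of spots were well above background in SNL and 82.1% and 81.9% in sham, and arrays correlated at 0.988 within SNL, 0.991 within sham and 0.982 to 0.984 between groups.

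The 7 factors and the 17 other lists (285 genes, 279 tested) were chosen with earlier results of these data known. From each list, up to 4 genes with the lowest p were named, besides those marked as named after their values were seen; some genes are not reported here. Likeness was the Euclidean distance of centred profiles, to Atf3 for 6 genes and to Sox11 for 4, leaving out names of predicted genes, clones and regions. The replicate numbers mark separate mice and do not pair them (correlation of deviations -0.0274). Alternatives were background correction, normalization, filters, the use of several probes, variance estimation, the deposited table, a replicate block and leaving out each mouse; keeping outlier-flagged spots was added after the data were seen. All arrays were on 1 slide scanned on 1 day, so neither could be a block.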

Additional observations from a re-analysis of the deposited data

How the results depend on the processing

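Across 14 alternatives the differences of Atf3, Jun, Sox11, Smad1, Klf6, Fosl1 and Crem stayed above 0. For many of these the sign was fixed in advance. Both SNL mice lay above both sham mice for each factor, so leaving out 1 mouse could not change it. The replicate block and the variance trend change the p but not the difference. Against 50 calls, 133 genes passed with normexp background correction, 11 with quantile normalization, 30 with the percentile over probes above background on all arrays, 1231 with no filter on dim probes, 559 with a variance trend and robust estimation (436 higher and 123 lower, against 47 and 3), 0 with the replicate block and 0 without any 1 mouse (1942 genes higher and 1595 lower had an unadjusted p under 0.05 with all mice). Atf3 did not pass with the replicate block (5.22, adjusted p = 0.185), though the labels give separate mice, or with 1 mouse left out (5.15 to 5.29, adjusted p 0.102 to 0.473). The block changed no other factor's call. Sox11 passed with no filter and with the variance trend (1.27 in both), and Fosl1 with no filter (1.10). With 1 mouse left out, Jun ranged from 0.15 to 0.45, Sox11 from 1.26 to 1.28, Smad1 from 0.48 to 0.55, Klf6 from 0.39 to 0.57, Fosl1 from 1.00 to 1.19 and Crem from 0.45 to 0.62. The Crem probe A_55_P2177904 reversed with normexp (0.16) and ranged from -0.76 to 0.31 with 1 mouse left out. Slide and scan day as blocks were not run, since all arrays share both. These 2 mice a group limit every value.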

Other observations

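Other cell types of the cord were followed by their own markers, with a list of genes expressed in lumbar cord besides. Of 13 tested T and B lymphocyte markers, 5 were higher in SNL cords at an unadjusted p under 0.05, against 6.67% of all genes. After limma's adjustment 0 were, and 4 of the 13 lay below 0. By p the first were Cd3e (0.87 ± 0.17), Cd8b1, Il2rb (0.93 ± 0.19) and Cd8a (0.91 ± 0.21), with Cd8b1 not well above background on the sham arrays and at least 3.22-fold higher in SNL cords. The summed level of the 13 was 0.946 and 0.843 in SNL cords and 0.721 and 0.874 in sham cords. The 12 astrocyte markers had a median difference of 0.031, the 13 oligodendrocyte markers 0.031, and the 16 meningeal fibroblast and vessel markers -0.056, each with 0 genes past the adjustment and each changing sign under some other settings. The 14 genes of the lumbar cord list had a median of 0.072, which ranged from 0.03 to 0.15 with 1 mouse left out. Their summed level was 33.1 and 32.0 in SNL cords and 29.7 and 32.1 in sham cords. Besides posterior Hox genes, the list holds transmitter and dorsal horn genes not limited to lumbar levels, so neither value measures lumbar origin. Hoxd11, a posterior Hox gene, was at 0.14 and 0.33 in SNL cords and 0.76 and 0.75 in sham cords.

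Sprr1a, a small proline-rich protein gene of regenerating neurons named after its values were seen, read 2.91 and 2.77 in SNL cords and -8.27 and -3.98 in sham cords. The lower sham spot was not well above background, the sham mice did not lie close together, and limma's adjusted p was 0.208. Uts2, a peptide gene of motor neurons, read -0.38 and -0.49 in SNL cords and 1.84 and 1.67 in sham cords (limma adjusted p = 0.0509).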
